A study of Mus musculus with 6 samples.

Results

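The mRNA levels of 10 genes that break down heme, store iron or move iron across membranes were examined in C2C12 myotubes, cells of a mouse myoblast line that fuse into muscle fibres in culture, after exposure to the plant flavonol kaempferol. The genes are Hmox1, Hmox2, Blvra, Blvrb, Fth1, Ftl1, Slc40a1, Tfrc, Slc11a2 and Fech, taken by gene name from the 54924 genes of the count table. All 10 were among the 14558 genes with enough counts to be tested. RNA sequencing covered 3 control libraries without kaempferol and 3 libraries exposed to kaempferol at 25 μM over 24 h. Both groups had first differentiated in horse serum during 6 days. The differentiated cells were plated again before exposure, and the solvent given to the control cells is not given in the sources used here. In the labels the line of the kaempferol libraries appears as C2C13, dedifferentiation is given as a treatment in every library, and the protocol text is worded alike for all 6, so the groups rest on the titles. Whether replicates were cultured separately is not stated, and the p-values measure only the spread between these libraries, which may be technical.

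Heme oxygenase opens the heme ring and releases ferrous iron, carbon monoxide and biliverdin, which biliverdin reductase turns into bilirubin. Freed iron is stored in ferritin, a hollow shell of heavy and light chains, or leaves the cell through ferroportin, while transferrin receptor 1 and the divalent metal transporter bring iron in. Skeletal muscle needs iron for myoglobin and for its mitochondria. Iron also acts after transcription: when it is scarce, iron regulatory proteins bind a hairpin called the iron-responsive element (IRE), which blocks translation when it lies in the 5′ UTR of an mRNA and protects the mRNA from decay when it lies in the 3′ UTR.

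The hairpins are shown because they divide the 10 genes by a feature of sequence. The genes were chosen for their part in heme and iron handling and the element belongs to iron regulation, so the feature is not independent of that choice. A search of the UTRs of GENCODE M21 coding transcripts looked, on the sense strand, for an unpaired C, 5 bases, the loop CAGTG followed by A, C or T, and 5 bases able to pair with the first 5. It found the pattern in the 5′ UTR of Fth1, Ftl1 and Slc40a1 and in the 3′ UTR of Tfrc. Each line gives 29 bases of build GRCm38 in mRNA sense, 5′ to 3′ and in DNA letters, with the unpaired C and the 6-base loop in capitals.
Fth1, 5′ UTR, chr19:9982732-9982760, plus strand: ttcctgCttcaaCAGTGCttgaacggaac
Ftl1, 5′ UTR, chr7:45459779-45459807, minus strand: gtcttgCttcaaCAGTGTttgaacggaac
Slc40a1, 5′ UTR, chr1:45925465-45925493, minus strand: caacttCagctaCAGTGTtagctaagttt
Tfrc, 3′ UTR, chr16:32631219-32631247, plus strand: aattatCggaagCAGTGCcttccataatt
Tfrc, 3′ UTR, chr16:32631598-32631626, plus strand: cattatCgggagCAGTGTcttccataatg
Tfrc, 3′ UTR, chr16:32631663-32631691, plus strand: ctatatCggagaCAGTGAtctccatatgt
Tfrc, 3′ UTR, chr16:32631710-32631738, plus strand: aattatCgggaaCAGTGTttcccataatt
The 5 bases on each side of the loop are the same in the Fth1 and Ftl1 elements, and the bases before the unpaired C differ in part. The element was found in 4 of 5 coding transcripts of Fth1, 1 of 2 of Ftl1, 1 of 4 of Slc40a1 and 1 of 3 of Tfrc. The same pattern was found in the 5′ UTR of 23 of 21877 genes (0.105%) and in the 3′ UTR of 100 genes (0.457%). Slc11a2 had no match, which says only that this exact pattern was not in its annotated UTRs. The search asked for all 5 pairs, so an element with a mismatch or a further unpaired base there would be missed. The search was chosen after the expression values had been seen, and a match is a description of sequence.

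The libraries held 16575790 to 18625272 counts each, with a median over tested genes of 441 to 501. At this depth 3 counts correspond to 0.159 to 0.181 CPM, the count scaled to the size of its library, and this is the level that a count of 0 allows. Log2 CPM correlated at 0.992 to 0.993 between libraries of a group and at 0.985 to 0.987 between groups, and the variance between libraries of a group was 3.25 to 5.17 times the counting variance. The myotube label was checked with 12 marker genes, of which 11 were tested. With kaempferol 2 were upregulated (Myog and Acta1) and 2 downregulated (Des and Mymx), beside 11.6% and 13% of all tested genes. The summed level of the 12 markers was 1190 to 1308 CPM in control libraries and 1161 to 1224 CPM in kaempferol libraries. Its largest part was Des, with means of 652 and 587 CPM. Ttn and Acta1 came next, with means of 214 and 194 CPM in control libraries. There Myh3 and Myog had means of 79.3 and 33.1 CPM, and Myh1, Mb and Ckm only 8.99, 8.25 and 4.66 CPM. Myh8 had too few counts to be tested. The sum therefore says little about how far the cells had differentiated. Markers of myoblasts and dividing cells were also present, and 4 of 6 were downregulated, beside 13% of all tested genes. Their summed level was 1643 to 1776 CPM in control and 1210 to 1311 CPM in kaempferol libraries. Mki67 and Top2a had means of 665 and 737 CPM in control and 393 and 586 CPM in kaempferol libraries. Of 5 fibroblast markers 4 were tested. Of these 1 was upregulated (Pdgfra) and 3 were downregulated (Col1a1, Dcn and Pdgfrb), beside the same shares of all tested genes. The fibroblast sum was 1533 to 1662 CPM in control and 1099 to 1144 CPM in kaempferol libraries. Its largest part was Col1a1, with means of 1083 and 669 CPM, followed by Pdgfrb with 457 and 381 CPM. Thy1 held only 10 reads in all 6 libraries together. Whether any fibroblasts were present was not tested. The part of these shifts in the results was not tested. In these bulk samples fewer cells of a type and less RNA per cell cannot be told apart. Macrophages and erythroid cells recycle or hold much heme, and their markers were near 0. Macrophage markers summed to 4.58 to 6.07 CPM in control and 4.14 to 4.85 CPM in kaempferol libraries, with Adgre1, Itgam and Marco at 0 counts. Erythroid markers summed to 1.63 to 1.73 CPM and 2.71 to 3.95 CPM, with 6 of 8 at 0 counts, among them Hbb-bs, Hbb-bt and Gata1. Of the hepatocyte markers 4 of 5, Alb and Ttr among them, were at 0 counts.

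With kaempferol the cells had more mRNA of the inducible heme oxygenase, the flavin-type biliverdin reductase, both ferritin chains and the iron exporter, and slightly more mRNA of the enzyme that inserts iron into heme. Hmox1, Blvrb, Fth1, Ftl1, Slc40a1 and Fech were upregulated and none of the 10 genes was downregulated (edgeR quasi-likelihood test, Benjamini-Hochberg adjusted p under 0.05 over all tested genes). Hmox2, Blvra, Tfrc and Slc11a2 did not pass the test. The 6 upregulated of 10 stand beside 11.6% of all tested genes called upregulated, and the 0 downregulated beside 13%, with 24.6% called in either direction. Upper-quartile scaling called 2030 genes upregulated and 1495 downregulated, against 1696 and 1891 with the TMM scaling used here, and left the 6 genes called. At an unadjusted p under 0.05, 1 of the 10, Blvra, was lower by edgeR and 0 by DESeq2, which also called 0 of the 10 downregulated after adjustment. The kaempferol and control libraries did not overlap for 7 of the 10 genes (the 6 upregulated genes above and Blvra below), against 38.2% of all tested genes. On the log2 scale the 10 genes had a median fold change of 0.59, beside -0.00 over all tested genes.

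**Figure D1:**
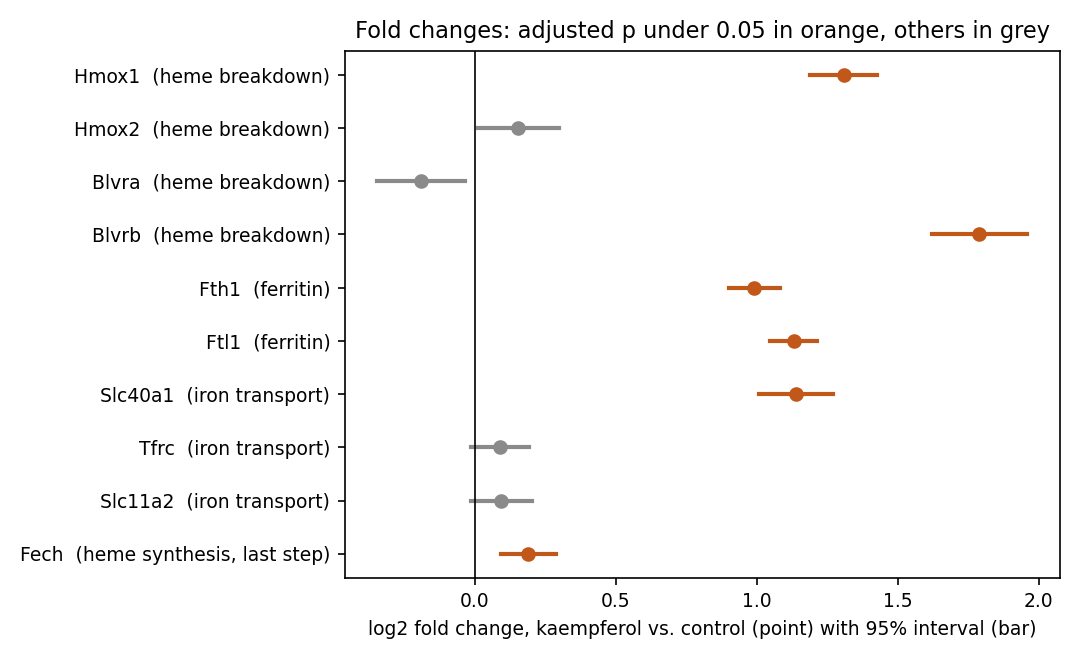
Log2 fold change of each gene, kaempferol vs. control, with its 95% interval (x axis), 1 row per gene, in orange where the adjusted p was under 0.05. Blvrb lies farthest right at 1.79, Hmox1, Slc40a1, Ftl1 and Fth1 lie between 0.99 and 1.31, and the other 5 lie between -0.19 and 0.19.

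Hmox1 encodes heme oxygenase 1, the stress-inducible form of the enzyme. The gene (ENSMUSG00000005413) spans 75093621 to 75100589 on the plus strand of chromosome 8 in build mm10. Its level was 59.7, 63.8 and 70.9 CPM in control libraries 1 to 3 and 164, 151 and 166 CPM in kaempferol libraries 1 to 3. Every kaempferol library stood above every control library, and the lowest of them held 2524 reads of the gene against 1177 in the highest control library. The mean went from 64.8 ± 5.68 to 160 ± 8.06 CPM (SD, n = 3), a 2.48-fold rise with a 95% interval of 2.28 to 2.69 (log2 fold change 1.31, SE 0.0579, edgeR adjusted p = 1.76e-14).

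Hmox2 encodes heme oxygenase 2, the constitutive form. The gene (ENSMUSG00000004070) lies on chromosome 16, from 4726361 to 4766742, plus strand. Its level was 39.5, 41.4 and 45.1 CPM in control and 46.0, 49.3 and 45.0 CPM in kaempferol libraries, so the groups overlapped. The 1.11-fold difference (95% interval 1.01 to 1.23) did not pass the test (log2 fold change 0.16, SE 0.0690, edgeR adjusted p = 0.107). Without control replicate 3 it passed narrowly, with a log2 fold change of 0.21 and an adjusted p of 0.0479, and over all alternatives the adjusted p was 0.0479 to 0.335. Hmox2 overlaps the gene Cdip1 on the other strand over 16395 bases, a length that includes introns. The sources used here do not say whether counting used strand, so reads in any exon bases that both genes share could not be told apart.

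The 2 forms of heme oxygenase were compared within each library by their level per length, that is, counts divided by the gene length of the table. Hmox1 made up 65.7, 66.2 and 66.6% of the per-length sum of both genes in control libraries and 81.9, 79.5 and 82.4% in kaempferol libraries. The groups did not overlap, and the share went from 66.1 ± 0.460% to 81.3 ± 1.52% (SD, n = 3), a difference of 15.1 percentage points (exact permutation test, two-sided, p = 0.1, the smallest p that 3 against 3 libraries allow, and 0.1 after adjustment over the 3 shares computed). In TPM, the per-length level scaled to the same total in every library, Hmox1 went from 118 to 293 and Hmox2 from 60.2 to 67.4.

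**Figure D2:**
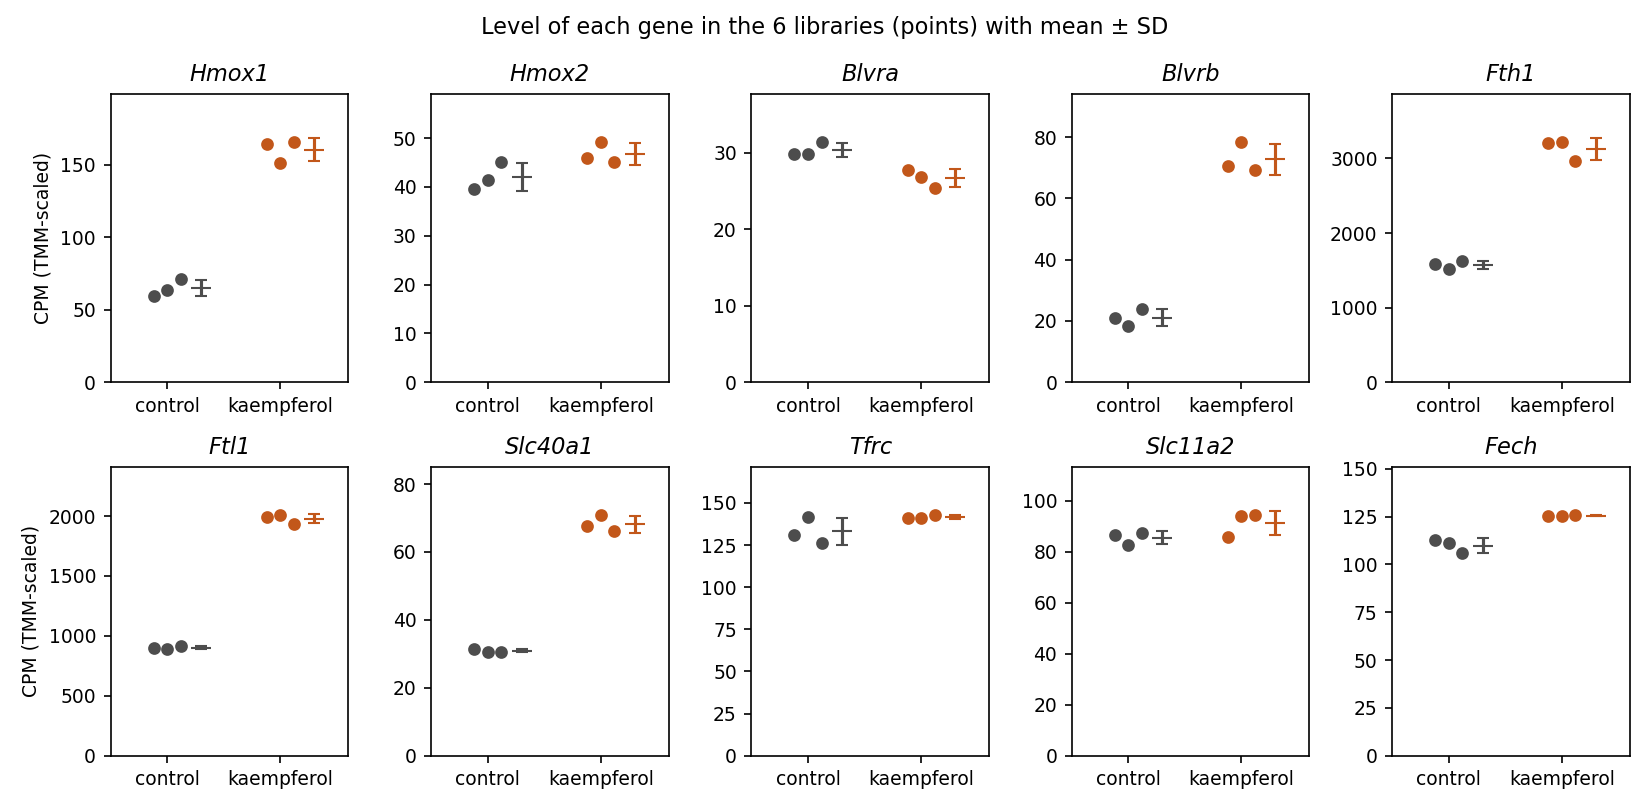
Level of each of the 10 genes in CPM scaled with TMM factors (y axis, starting at 0 and drawn on its own scale for each gene), with 1 point per library and a bar for the mean ± SD of 3 libraries. The kaempferol points stand apart from the control points for Hmox1, Blvrb, Fth1, Ftl1 and Slc40a1, narrowly for Fech and, below them, Blvra, and they overlap for Hmox2, Tfrc and Slc11a2.

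Of the biliverdin reductases, B was upregulated and A was not. Blvrb encodes biliverdin reductase B, which also reduces flavins, and it had the largest fold change of the 10 genes. Located on chromosome 7 from 27447978 to 27466144 on the plus strand (ENSMUSG00000040466), it was measured at 20.9, 18.4 and 24.0 CPM in control and 70.5, 78.6 and 69.3 CPM in kaempferol libraries. No library of one group came near the other, with 330 to 398 reads per control library and 1227 to 1312 per kaempferol library. The mean rose from 21.1 ± 2.81 to 72.8 ± 5.04 CPM (SD, n = 3), 3.46-fold with a 95% interval of 3.08 to 3.89 (log2 fold change 1.79, SE 0.0819, edgeR adjusted p = 3.03e-14). By log2 fold change Blvrb was number 42 of the 1696 upregulated genes.

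Blvra encodes biliverdin reductase A, the main enzyme for the biliverdin that heme oxygenase makes. Its gene (ENSMUSG00000001999, chromosome 2, 127070665 to 127097084, plus strand) had 29.9, 29.9 and 31.5 CPM in control and 27.8, 26.8 and 25.4 CPM in kaempferol libraries. Every kaempferol library was below every control library, by a margin that did not pass the test over all genes (0.877-fold, 95% interval 0.787 to 0.976, log2 fold change -0.19, SE 0.0750, edgeR adjusted p = 0.0682). Blvrb made up 38.0, 35.1 and 40.1% of the per-length sum of both reductases in control libraries and 69.1, 72.0 and 70.6% in kaempferol libraries. In every control library Blvra was thus the larger part per length, and in every kaempferol library Blvrb was. The share of Blvrb went from 37.7 ± 2.54% to 70.6 ± 1.48% (SD, n = 3), a difference of 32.8 percentage points (exact permutation test, two-sided, p = 0.1, the smallest possible). With lengths of 1 annotated transcript per gene in place of the table's lengths, an alternative chosen after the data were seen, the share went from 43.8 to 75.5%, with the same order in the mean of each group.

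**Figure D3:**
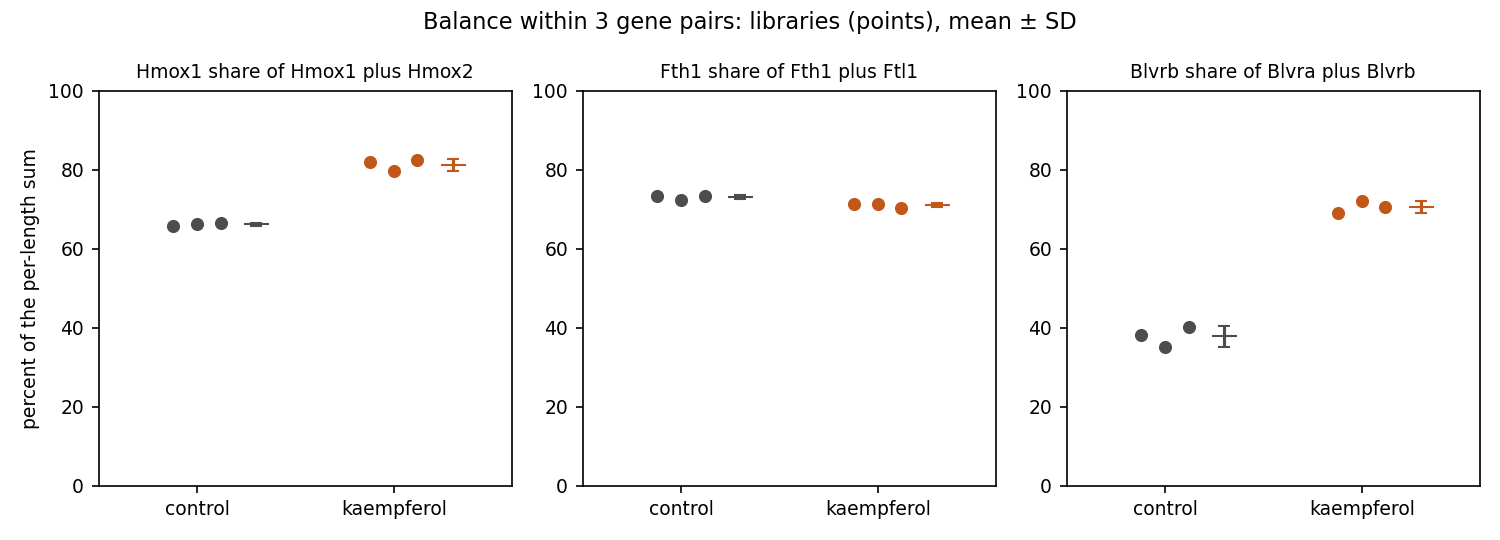
Share of 1 gene in the per-length sum of a pair, in percent (y axis, 0 to 100), for Hmox1 with Hmox2, Fth1 with Ftl1 and Blvrb with Blvra, with 1 point per library and a bar for the mean ± SD of 3 libraries. The share of Hmox1 went from 66.1 to 81.3% and that of Blvrb from 37.7 to 70.6%, while that of Fth1 stayed between 70.3 and 73.3% in all 6 libraries.

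Ferritin mRNA was abundant before exposure and about doubled. Fth1 encodes the heavy chain, which oxidises ferrous iron so that it can be stored. Its gene (ENSMUSG00000024661) lies on chromosome 19 from 9982703 to 9985092, plus strand. Fth1 had 1584, 1515 and 1622 CPM in control libraries and 3201, 3226 and 2964 CPM in kaempferol libraries. The lowest kaempferol library was far above the highest control library. The mean rose from 1574 ± 54.0 to 3130 ± 145 CPM (SD, n = 3), 1.99-fold with a 95% interval of 1.87 to 2.12 (log2 fold change 0.99, SE 0.0435, edgeR adjusted p = 1.14e-14). Per length, Fth1 went from number 7 to number 2 among protein-coding genes, with 5776 and 11549 TPM.

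Ftl1 encodes the light chain, which helps the stored iron mineralise. The gene (ENSMUSG00000050708) is on the minus strand of chromosome 7, from 45457944 to 45459884. Control libraries had 898, 894 and 916 CPM and kaempferol libraries 1990, 2008 and 1934 CPM. The spread within each group was small beside the gap between the groups, and the mean went from 902 ± 11.5 to 1977 ± 38.6 CPM (SD, n = 3). The rise was 2.19-fold with a 95% interval of 2.07 to 2.32 (log2 fold change 1.13, SE 0.0404, edgeR adjusted p = 2.14e-16). Ftl1 went from number 32 to number 9 among protein-coding genes by TPM, from 2141 to 4716. The chains together took 0.239 to 0.250% of all counts in control libraries and 0.495 to 0.527% in kaempferol libraries.

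The balance of the chains moved little. Fth1 made up 73.2, 72.4 and 73.3% of the per-length sum of both chains in control libraries and 71.3, 71.3 and 70.3% in kaempferol libraries. The kaempferol libraries were all lower, by 1.95 percentage points in the mean (73.0 ± 0.488% to 71.0 ± 0.569%, SD, n = 3, exact permutation test, two-sided, p = 0.1, the smallest possible). The level of this share depends on the gene lengths: with the lengths of 1 transcript per gene it went from 64.5 to 62.2%.

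Some ferritin reads lie in near-identical copies, between which counting can split reads. Ftl1-ps1, 99.6% identical to Ftl1 over 910 bases, held 401, 474 and 351 reads in control and 845, 869 and 898 reads in kaempferol libraries, 2.62% and 2.50% of the Ftl1 counts. It changed with Ftl1 (log2 fold change 1.07, SE 0.0791, edgeR adjusted p = 2.84e-10), as did Gm15590, 99.1% identical over 552 bases, with 39 to 63 and 93 to 108 reads per library (1.07, SE 0.196, adjusted p = 0.000234). Ftl2-ps held 48 reads in all 6 libraries together, Mir692-2 held 28 and Gm22774 held 13, and these are uncertain in the same way. The only Fth1 copy found with reads, Gm6977, held 1.

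The exporter was upregulated and the importers did not pass the test. Slc40a1 encodes ferroportin, the known cellular exporter of iron. The gene (ENSMUSG00000025993, chromosome 1, 45908068 to 45926523, minus strand) had 31.5, 30.7 and 30.7 CPM in control and 67.5, 70.9 and 66.1 CPM in kaempferol libraries. The groups were wide apart, with 509 to 551 reads per control library and 1175 to 1243 per kaempferol library. The mean went from 30.9 ± 0.473 to 68.1 ± 2.45 CPM (SD, n = 3), 2.20-fold with a 95% interval of 2.01 to 2.41 (log2 fold change 1.14, SE 0.0633, edgeR adjusted p = 1.05e-12). Its per-length level, 10.9 and 24.2 TPM, rests on a table length of 9000 bases, where 1 annotated transcript has 3370 bases, so that its level beside the other genes is uncertain.

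Tfrc encodes transferrin receptor 1, which takes up iron bound to transferrin. Its gene (ENSMUSG00000022797) is on chromosome 16, plus strand, from 32608920 to 32632794. Tfrc had 131, 142 and 126 CPM in control and 141, 141 and 143 CPM in kaempferol libraries, so that control replicate 2 lay among the kaempferol libraries. The difference of 1.06-fold (95% interval 0.991 to 1.14) did not pass the test (log2 fold change 0.09, SE 0.0494, edgeR adjusted p = 0.206, and 0.0660 without control replicate 2). Slc11a2 encodes the divalent metal transporter, which carries ferrous iron out of endosomes and, in the gut, into the cell. The gene (ENSMUSG00000023030, chromosome 15, 100387898 to 100425072, minus strand) had 86.6, 82.8 and 87.1 CPM in control and 85.7, 93.8 and 94.3 CPM in kaempferol libraries, which overlapped. It did not pass the test either (1.07-fold, 95% interval 0.990 to 1.15, log2 fold change 0.09, SE 0.0527, edgeR adjusted p = 0.208). The upper ends of both intervals lie below the lower end for Slc40a1, 2.01.

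Ratios within each library set the ferritin chains beside the receptor and the exporter. Per length, Fth1 was 84.7 ± 7.83 times Tfrc in control and 158 ± 8.41 times in kaempferol libraries (SD, n = 3). The ratio of Ftl1 to Tfrc went from 31.4 ± 2.19 to 64.5 ± 1.72, and that of Fth1 to Slc40a1 from 529 ± 18.7 to 477 ± 13.8. The level of each ratio depends on the gene lengths used, and that to Slc40a1 is uncertain for the reason given above. These ratios are descriptions with no test.

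The 3 genes with the IRE pattern in a 5′ UTR had log2 fold changes of 0.99, 1.13 and 1.14. Tfrc, with the 3′ UTR elements shown above, had 0.09, as did Slc11a2, which had no match. Hmox1 and Blvrb had no match either, and their log2 fold changes, 1.31 and 1.79, were the largest of the 10 genes. The rises were thus not confined to genes with the pattern. The pattern lies in only some of the coding transcripts, and counts by gene do not show which transcripts were present. Of 18 tested genes with the pattern in the 5′ UTR, 4 were upregulated (Fth1, Ftl1, its copy Ftl1-ps1 and Slc40a1) and 1 was downregulated, beside 11.6% and 13% of all tested genes. The upregulated genes are thus members of the 10 and a copy of 1 of them, so their count adds nothing to the calls above. Of the 15 that were not among the 10 genes, 1 was upregulated, the copy Ftl1-ps1, and 1 was downregulated. These 15 had a median log2 fold change of -0.01, near that of all tested genes. Of 73 tested genes with the pattern in the 3′ UTR, 12 were upregulated and 14 downregulated, with a median of -0.00, beside the same background of 11.6% and 13%.

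**Figure D4:**
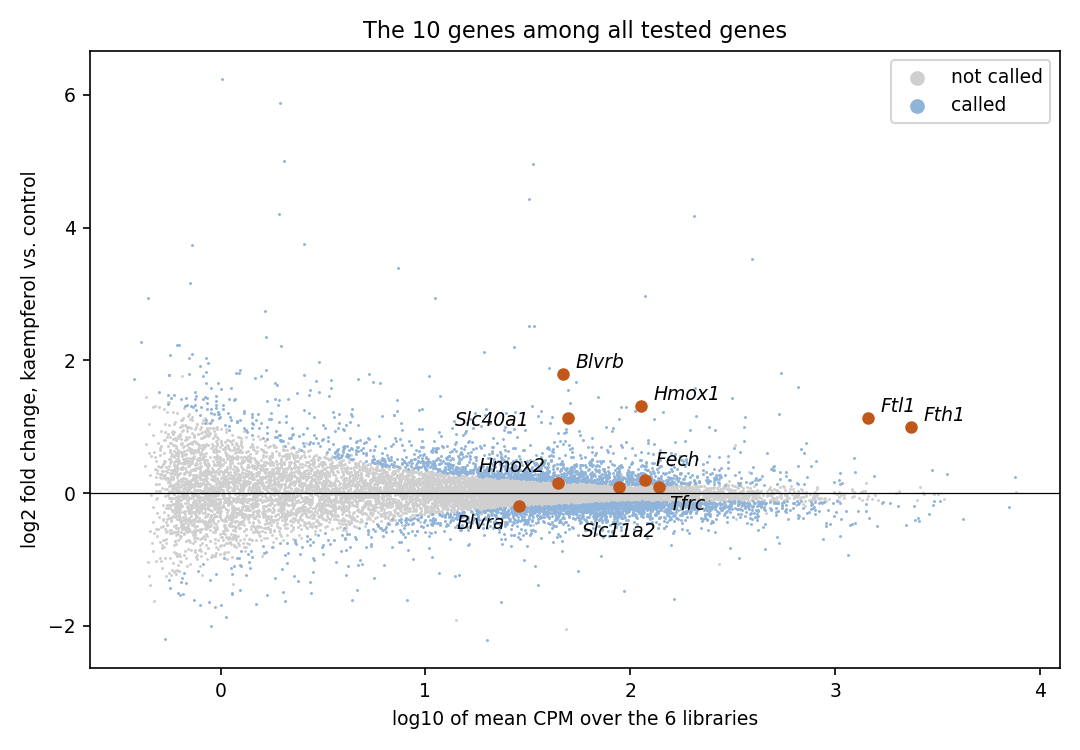
Log2 fold change, kaempferol vs. control (y axis), against the log10 of the mean CPM over 6 libraries (x axis) for the 14558 tested genes, called genes in blue, others in grey, and the 10 genes in orange. Fth1 and Ftl1 lie at the far right among the most abundant mRNAs with log2 fold changes of 0.99 and 1.13, where most genes lie near 0.

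Promoters of the RefSeq table (GRCm38.p6, 300 bases that end just after each start) were searched on both strands for TGACNNNGC, the core letters of the antioxidant response element, whose first letters overlap those of the AP-1 site. The motif occurred in 4071 of 32851 promoters (12.4%), and in at least 1 promoter of 3781 of 27025 genes (14%). Of the 10 genes, 6 were analysed, with 11 promoters in all, and only Blvra had a match. Hmox1, Slc40a1, Slc11a2 and Fech were not analysed here. A window of this length does not reach distal elements, and no match says only that these letters are not in the window.

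Fech encodes ferrochelatase, the last enzyme of heme synthesis, which inserts ferrous iron into protoporphyrin. Its gene (ENSMUSG00000024588) is on chromosome 18, minus strand, from 64456550 to 64489066. Fech had 113, 111 and 106 CPM in control and 125, 125 and 126 CPM in kaempferol libraries. All kaempferol libraries were above the control libraries, by a narrow margin. The mean rose from 110 ± 3.68 to 125 ± 0.304 CPM (SD, n = 3), 1.14-fold with a 95% interval of 1.07 to 1.22 (log2 fold change 0.19, SE 0.0468, edgeR adjusted p = 0.00396). The call is lost where a fold change of at least 1.5 is asked for.

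Other genes of heme and iron handling were read from 6 lists with 68 genes in the table. Of the 56 tested, 12 were upregulated and 4 downregulated, beside 11.6% and 13% of all tested genes. In heme synthesis 2 of 7 tested genes passed the test, both upward. Alas1, the rate-limiting first enzyme of the pathway outside red cells, went from 30.1 to 48.8 CPM (log2 fold change 0.70, SE 0.0705, edgeR adjusted p = 5.64e-08), and Uros, uroporphyrinogen synthase, had 0.40 (adjusted p = 0.0182). The median of the list was -0.00. Of 9 tested genes of heme transport and binding, 2 passed the test, both upward, with a median of 0.17. Slc48a1 encodes HRG1, which carries heme out of endosomes and lysosomes. Its level was 220, 219 and 239 CPM in control and 504, 498 and 494 CPM in kaempferol libraries, with no overlap (log2 fold change 1.14, SE 0.0460, edgeR adjusted p = 2.31e-15). Pgrmc1, a heme-binding membrane protein, had 0.17 (adjusted p = 0.00793).

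In iron uptake 1 of 6 tested genes was upregulated, the ferrireductase gene Steap3 (log2 fold change 0.29, edgeR adjusted p = 0.000204), and 1 was downregulated, Slc39a14, the gene of the metal importer ZIP14 (-0.23, adjusted p = 0.00302). The list median was -0.00, and Trf and Steap4 were at 0 counts. Of 6 tested genes of iron export and the hepcidin axis, 2 were upregulated and 1 downregulated, with a median of 0.09. Tmprss6, the gene of a protease that acts on hemojuvelin in liver, went from 1.88 to 0.790 CPM (log2 fold change -1.23, SE 0.325, edgeR adjusted p = 0.00683). Hfe, which regulates hepcidin in liver, went from 1.89 to 3.19 CPM (0.76, adjusted p = 0.0250), and Neo1, neogenin, had 0.15 (adjusted p = 0.0250). The calls of Uros, Hfe and Neo1 did not survive leaving out single libraries: Uros had an adjusted p of 0.0945 without control replicate 3 and 0.0738 without kaempferol replicate 3, Hfe 0.110 without control replicate 1 and 0.137 without kaempferol replicate 3, and Neo1 0.0676, 0.104 and 0.0963 without control replicates 2 and 3 and kaempferol replicate 3. Hamp and Hamp2, the hepcidin genes, were at 0 counts.

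Of 9 tested genes of iron sensing and ferritin turnover, 2 passed the test, both downward, with a median of -0.05. Herc2, the gene of a ubiquitin ligase that acts on NCOA4, had a log2 fold change of -0.26 (edgeR adjusted p = 0.00159), and Pcbp1, an iron chaperone that loads ferritin, had -0.17 (adjusted p = 0.0116, and 0.0705 without kaempferol replicate 3). Ncoa4, the receptor that delivers ferritin to lysosomes, had -0.16 and stayed just outside the threshold (adjusted p = 0.0502). The genes of the iron regulatory proteins, Aco1 and Ireb2, had -0.05 and 0.03, and Fbxl5, which marks the second of them for degradation, had 0.03. The sign for Ireb2 and Fbxl5 changed when single libraries were left out. In mitochondrial iron handling and iron-sulfur cluster assembly 5 of 19 tested genes passed the test, each of them upward, with a median of 0.08. They were Hscb, a cochaperone of cluster transfer (0.58, adjusted p = 0.00102), Nubpl, an assembly factor of complex I (0.45, adjusted p = 0.00294), Bola3 (0.40, adjusted p = 0.000429), the scaffold gene Iscu (0.29, adjusted p = 0.000932) and Slc25a37, the gene of mitoferrin 1 (0.26, adjusted p = 0.000187). The shares of upregulated and downregulated genes in each of these lists may be read against the 11.6% and 13% of all tested genes.

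**Figure D5:**
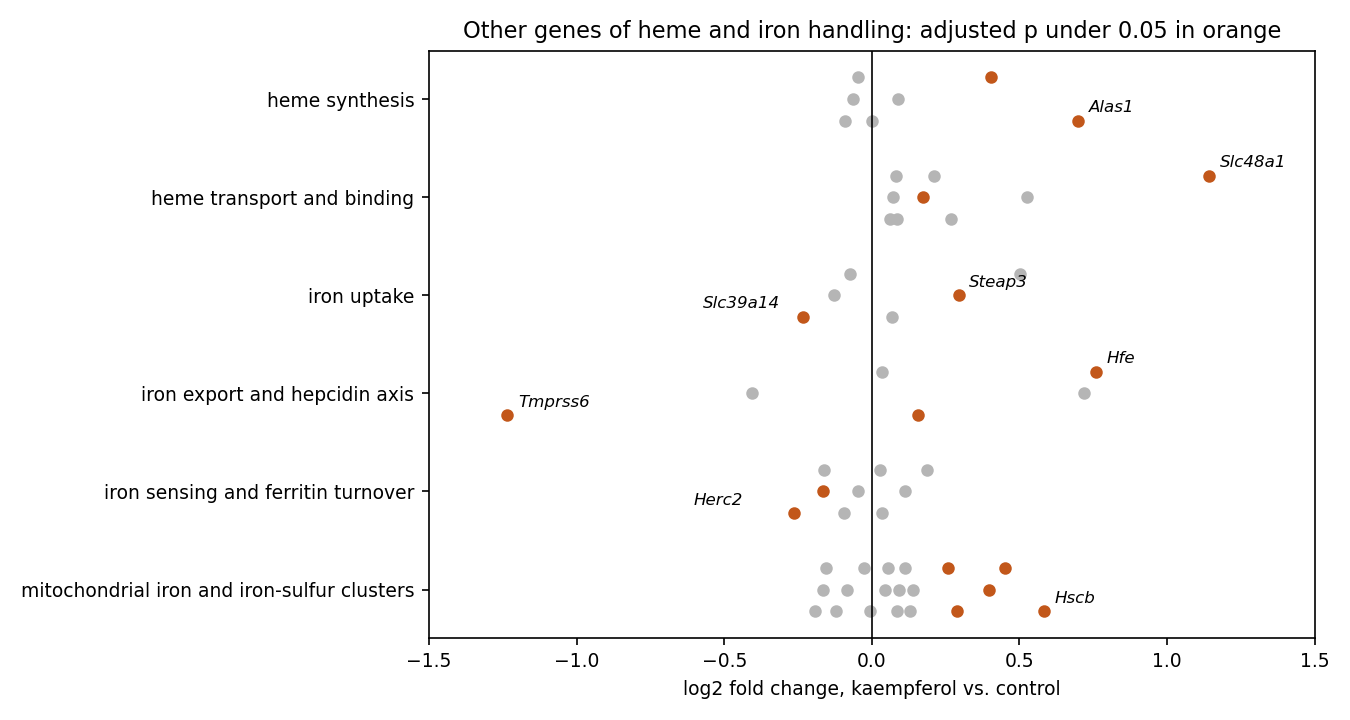
Log2 fold change, kaempferol vs. control (x axis), of the 56 tested genes of 6 lists (rows), 1 point per gene, in orange where the adjusted p was under 0.05 and in grey otherwise. Slc48a1 lies farthest right at 1.14 and Tmprss6, a gene of low level, farthest left at -1.23, and most other points lie near 0.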

How the data were processed

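For the 3 control and 3 kaempferol libraries the authors deposited unnormalised read counts by gene, in 1 table. Libraries were made by poly(A) capture and random priming. The submitters' processing notes list build mm10 and the tools featureCounts 1.5.0-p3, HISAT2 2.0.5, fastp, DESeq2 1.20.0 and StringTie 1.3.3b. The strand setting is not given in the sources used here. Reads in copies of a gene depend on how multiply mapped reads were counted.

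The analysis used edgeR 4.0.16 in R 4.3.3. The default filter of edgeR, with a minimum count of 10 and a minimum total of 15, kept 99.8 to 99.9% of the counts per library, with TMM factors of 0.985 to 1.012. The robust quasi-likelihood test compared kaempferol with control, and p-values were adjusted by the Benjamini-Hochberg method across the 14558 genes tested, with a threshold of 0.05. Standard errors and 95% intervals are those that the test statistic implies. TPM used the table's gene lengths. Shares within gene pairs were compared with exact permutation tests. Of the 10 genes, 8 had the same coordinates in GENCODE M21, Fth1 and Fech being the exceptions. Copies were found with blastn 2.17.0 at 95% identity or more over at least 100 bases. The fit was also run on data simulated with means and dispersions taken from the real counts.

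The 10 genes and the lists were chosen with earlier results of these data known. Named are the 10 genes, up to 4 called genes per list by absolute log2 fold change, and copies with at least 10 counts. The fifth upregulated mitochondrial gene, Slc25a37, and genes given as not called or at 0 were named after their values were seen. Alternatives were DESeq2 1.42.0, edgeR's likelihood ratio test, other scalings and filters, stricter thresholds, a replicate block, leaving out each library, and copies added to their gene. The non-robust test and transcript lengths were added after the data were seen. In the absence of a table, no protein sequences were used here.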

Additional observations from a re-analysis of the deposited data

How the results depend on the processing

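The count of upregulated genes among the 10 was 6 under all alternatives except the demand for a 1.5-fold change, which left 5 without Fech, and leaving out control replicate 3, which added Hmox2 and gave 7, so the range over single libraries left out was 6 to 7. The count of downregulated genes was 0 throughout. DESeq2 called the same 6 genes and gave Hmox2 an adjusted p of 0.211. Over all genes a 1.5-fold change left 446 upregulated and 182 downregulated genes, and an adjusted p under 0.01 left 1025 and 1140, by construction. In the 6 pathway lists the 1.5-fold demand left 3 upregulated and 1 downregulated. With the replicate block 1370 genes were upregulated and 1442 downregulated, and the 10 genes kept their counts of 6 and 0. The labels give replicate numbers in both groups. Deviations of same-numbered libraries from their group means correlated at -0.0246, -0.0612 and -0.0453. With only 3 libraries per group this cannot settle whether the numbers pair the samples. DESeq2 called 1250 and 1511 genes and the non-robust test 1647 and 1840. Leaving out 1 library gave 1278 to 1681 upregulated and 1294 to 1754 downregulated genes. The share differences kept their direction, with 14.6 to 16.0 percentage points for Hmox1, -2.23 to -1.62 for Fth1 and 31.5 to 34.0 for Blvrb when 1 library was left out, and 16.7, -2.27 and 32.3 without the division by length. Of the pathway genes named, Uros and Hfe were not called by DESeq2 (adjusted p = 0.0609 and 0.0811) and Neo1 not with the block (0.0761). Among the genes named with a fold change, Ireb2 and Fbxl5, which were not called, changed sign when single libraries were left out, with log2 fold changes of -0.0079 to 0.066 for Ireb2 and -0.075 to 0.15 for Fbxl5, and the others recomputed kept their sign.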

Other observations

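Hba-a1, an alpha globin gene and the only erythroid marker with enough counts to be tested, had a mean of 1.34 CPM in control and 2.85 CPM in kaempferol libraries (2.53 to 3.47 CPM) (log2 fold change 1.07, SE 0.266, edgeR quasi-likelihood adjusted p = 0.00432). The groups did not overlap, and its near-identical copy Hba-a2, between which and Hba-a1 counting can split reads, was at 0 counts. Among the other genes with an IRE pattern in the 5′ UTR, Nfib, the gene of a transcription factor, was the only one downregulated (log2 fold change -0.16, adjusted p = 0.0326). The call was lost with DESeq2 (adjusted p = 0.0761) and without control replicate 1 or 2 or kaempferol replicate 1 or 2 (0.142, 0.181, 0.0697 and 0.160).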
